A study of Mus musculus with 8 samples.

Results

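Ephrins and their Eph receptors were followed in the hippocampus of 3 × Tg-AD mice fed rosmarinic acid (RA). The members are 10 genes, namely the ligands Efna1, Efna3, Efna5, Efnb2 and Efnb3 and the receptors Epha3, Epha4, Epha5, Epha6 and Epha7, and they were taken as every probe set that the platform annotation assigns to exactly 1 of them. This gave 29 of 45037 probe sets. A probe set is a group of short probes against the same transcript, so several probe sets can report on 1 gene.

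RA is a plant polyphenol. Male 3 × Tg-AD mice carry APP with the Swe mutation, tau with P301L and PS1 with M146V, and develop amyloid and tau pathology with age. The RA group received a diet with 0.5% RA and the control group the diet without RA. Feeding lasted 8 months and ended at an age of 10 months. All animals of both groups carried the 3 mutant proteins, and no wild-type mice were on these arrays. RNA of the hippocampus was measured on 8 Affymetrix mouse genome arrays, 4 of the RA group (RA 1 to RA 4) and 4 of the control group (control 1 to control 4). The study's methods name 4 mice of average weight per group but also speak of pooled RNA, so whether an array stands for 1 animal is not settled, and p-values measure only the spread between these arrays.

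Ephrins are ligands held at the cell surface, the A class by a lipid anchor and the B class by a transmembrane segment with a cytoplasmic tail. Eph receptors are receptor tyrosine kinases, and because both partners sit in membranes they signal where cells touch, forward into the receptor cell and in reverse into the ephrin cell. A-class receptors bind mainly A-class ephrins, with EphA4 also binding ephrins of the B class. In the developing brain the system guides axons, and in the adult hippocampus EphA4 on dendritic spines, met by ephrin-A3 on astrocytes, takes part in the control of spine shape and of glutamate uptake.

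The values are log2 summaries made with FARMS, a factor analysis of the probes of each probe set. FARMS returns an almost constant value where the probes share no signal, so a probe set whose SD over all 8 arrays was at most 0.01 is called unmeasured here, which is no evidence that its transcript is absent or equal between groups. Of all probe sets, 3758 (8.34%) were measured. Arrays correlated at 0.989 to 0.998 with each other across probe sets. The mean was higher under RA in 73.1% of measured probe sets, whose median log2 fold change was 0.07, and RA array medians (5.833 to 5.835) lay above those of the control arrays (5.829 to 5.831). As the tissue was measured in bulk, fewer cells of a type and less RNA per cell cannot be told apart.

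Of the 29 member probe sets, 18 (62.1%) were measured. They report on 7 genes: 1 of 2 probe sets for Efna5, 3 of 4 for Efnb2, 1 of 4 for Epha3, 5 of 5 for Epha4, 3 of 4 for Epha5, 1 of 1 for Epha6 and 4 of 4 for Epha7. Efna1 (2 probe sets), Efna3 (2) and Efnb3 (1) were unmeasured throughout, so for ephrin-A1, for the astrocytic ephrin-A3 and for ephrin-B3 these arrays give no comparison. The 2 kinds were well apart, with SDs of at most 0.000333 over the 8 arrays in unmeasured member probe sets and of 0.031 to 0.495 in measured ones.

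Between the diets few member probe sets were called. The SE of the log2 fold change reached 0.357 (Epha7 1452380_at), so differences of some size could be missed. The rank product, which ranks each probe set in all 16 pairings of 1 RA with 1 control array, called 1 member probe set higher (Efna5) and 2 lower (both Epha7) at an estimated proportion of false positives (pfp) under 0.05. Over all probe sets it called 1.48%, of which 0.906% higher and 0.571% lower, and among measured ones 10.9% higher and 6.84% lower, so 1 higher and 2 lower of 18 measured members lie near the background. limma called 0 of 45037 probe sets at an adjusted p under 0.05 (4553 had an unadjusted p under 0.05, 1 of them an unmeasured member probe set), and the adjusted p of the measured members ran between 0.599 and 0.971. In none of the 18 did the RA and control arrays separate without overlap. Of all measured probe sets 5.59% did so, 2.71% higher and 2.87% lower, so 0 of 18 also lies near the background.

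Efna5 encodes ephrin-A5, an A-class ligand that repels or attracts growing axons depending on the receptor it meets. Its measured probe set, 1436866_at, read 6.98, 7.21, 7.03 and 6.83 in the RA arrays and 7.12, 6.34, 6.19 and 6.87 in the control arrays (log2). The RA arrays lay close together and the control arrays spread over a wider range, with controls 2 and 3 below every RA array and control 1 above all but RA 2. The means were 7.01 ± 0.159 in the RA group and 6.63 ± 0.438 in the control group (SD, n = 4 each), a log2 fold change of 0.39 (SE 0.223) or 1.31-fold. The rank product called it higher (pfp = 0.0296), while limma gave an adjusted p of 0.599. With only measured probe sets ranked it was not called (pfp = 0.894). Among the fits that left out 1 array it stayed called in 2 of 8, with log2 fold changes between 0.24 and 0.55. The other Efna5 probe set was unmeasured.

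Efnb2 encodes ephrin-B2, a transmembrane ligand of arterial endothelium and of neurons. Probe set 1419638_at read 7.19, 7.79, 7.26 and 6.93 in the RA arrays and 7.74, 6.88, 6.69 and 7.27 in the control arrays. Probe set 1419639_at read 7.53, 8.17, 7.56 and 7.30 in the RA arrays and 7.85, 7.22, 7.16 and 7.66 in the control arrays. Probe set 1449548_at read 6.20, 6.50, 6.34 and 6.11 in the RA arrays and 6.44, 5.95, 5.80 and 6.24 in the control arrays. In all 3 the highest array of each diet was RA 2 or control 1, and the groups overlapped over most of their range. Their log2 fold changes were 0.15 (SE 0.282), 0.17 (SE 0.241) and 0.18 (SE 0.161), with pfp of 0.111 to 0.120, and none was called.

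Epha7 encodes a receptor that binds ephrin-A5 and has shorter forms without the kinase domain. Its 4 probe sets did not give 1 answer. Probe set 1451991_at read 7.00, 6.34, 6.78 and 7.16 in the RA arrays and 6.32, 7.41, 7.44 and 7.09 in the control arrays. Means were 6.82 ± 0.356 in the RA group and 7.06 ± 0.523 in the control group (SD, n = 4 each), the log2 fold change was −0.24 (SE 0.303), and it was called lower (pfp = 0.0285, limma adjusted p = 0.809). Controls 2 and 3 lay above every RA array, and control 1 below every one.

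Probe set 1452380_at of Epha7 read 8.42, 7.43, 8.25 and 8.49 in the RA arrays and 7.51, 8.63, 8.76 and 8.32 in the control arrays. It averaged 8.15 ± 0.489 in the RA group and 8.31 ± 0.561 in the control group (SD, n = 4 each), with a log2 fold change of −0.16 (SE 0.357) and pfp of 0.0482 for a lower value (limma adjusted p = 0.901). Both calls were lost in 5 of the 8 fits that left out 1 array, and with only measured probe sets ranked (pfp = 0.548 for 1451991_at and 0.731 for 1452380_at). Without RA 2 the change in 1452380_at became positive, at 0.08.

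The other 2 Epha7 probe sets were not called. Probe set 1427528_a_at read 8.34, 7.39, 8.32 and 8.47 in the RA arrays and 7.46, 8.58, 8.49 and 8.21 in the control arrays, a log2 fold change of −0.05 (SE 0.342). Probe set 1443485_at read 7.26, 6.59, 7.22 and 7.38 in the RA arrays and 6.57, 7.29, 7.34 and 7.09 in the control arrays, a log2 fold change of 0.04 (SE 0.239). In both, 3 RA arrays and 3 control arrays shared the same range, and RA 2 and control 1 lay well below it.

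Epha4 encodes the receptor that binds ephrins of both classes and is concentrated at hippocampal synapses. Probe set 1421928_at read 8.33, 7.56, 8.50 and 8.56 in the RA arrays and 7.68, 8.71, 8.76 and 8.13 in the control arrays. Probe set 1421929_at read 9.08, 8.25, 9.04 and 9.23 in the RA arrays and 8.32, 9.21, 9.32 and 8.97 in the control arrays. Probe set 1429021_at read 8.81, 8.05, 8.87 and 8.89 in the RA arrays and 8.26, 9.17, 9.23 and 8.71 in the control arrays. All 3 had the same order of arrays at the bottom, RA 2 lowest and control 1 next.

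The remaining Epha4 probe sets repeated this. Probe set 1439757_s_at read 8.50, 7.75, 8.59 and 8.66 in the RA arrays and 7.86, 8.80, 8.86 and 8.43 in the control arrays. Probe set 1456863_at read 7.32, 6.69, 7.32 and 7.48 in the RA arrays and 6.74, 7.52, 7.54 and 7.34 in the control arrays. Over the 5 Epha4 probe sets the log2 fold change between diets was −0.18 to −0.05, with SEs of 0.246 to 0.331, and none was called. Each of these differences was smaller than its own SE.

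Epha5, an ephrin-A receptor of cortical and hippocampal neurons, varied least. Probe set 1435286_at read 7.50, 7.42, 7.51 and 7.54 in the RA arrays and 7.38, 7.61, 7.60 and 7.56 in the control arrays (log2 fold change −0.04, SE 0.0559). Probe set 1437920_at kept all 8 arrays between 8.18 and 8.26 (−0.01, SE 0.0226). Probe set 1444690_at read 8.57, 8.26, 8.65 and 8.53 in the RA arrays and 8.34, 8.65, 8.53 and 8.42 in the control arrays (0.02, SE 0.104). None of the 3 was called.

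Epha3 and Epha6 had 1 measured probe set each, and neither was called. Epha3, a receptor with high affinity for ephrin-A5, read 5.86, 5.67, 5.99 and 6.04 in the RA arrays and 5.59, 5.99, 5.87 and 5.82 in the control arrays at 1425575_at, a log2 fold change of 0.07 (SE 0.112). Epha6, a receptor enriched in the nervous system, read 6.94, 6.52, 7.05 and 7.08 in the RA arrays and 6.54, 7.11, 7.08 and 7.03 in the control arrays at 1421527_at, a log2 fold change of −0.04 (SE 0.179). In Epha6 the other 3 arrays of each diet lay close together, well above RA 2 and control 1.

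**Figure D1:**
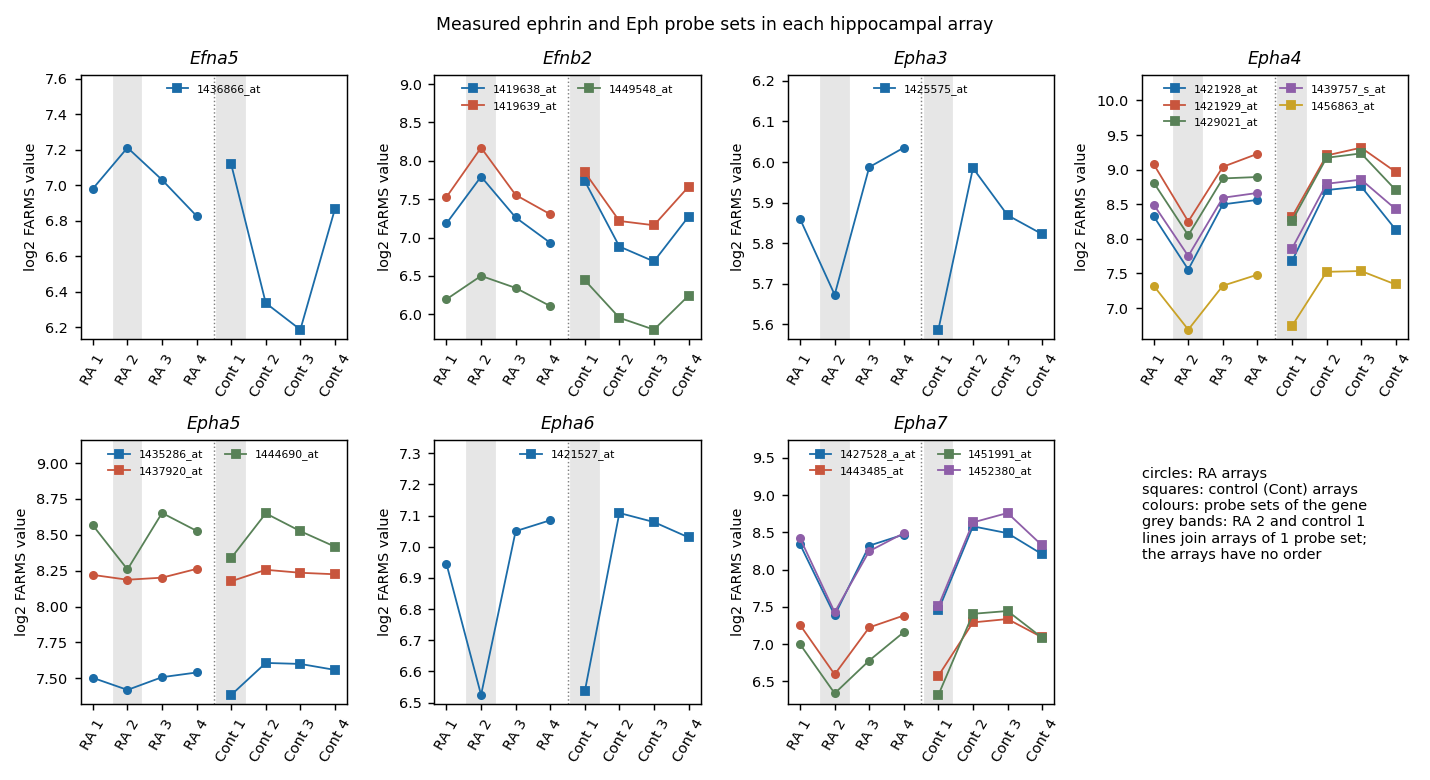
Log2 value of the 18 measured member probe sets in each array, by gene, with RA arrays left of control arrays (Cont); points are arrays, colours are probe sets and lines only join the arrays of 1 probe set. In the receptor probe sets RA 2 and control 1 are the lowest points and in the Efna5 and Efnb2 probe sets the highest. The other arrays of the diets overlap in all probe sets but Epha5 1435286_at, where the other RA arrays lie below the other control arrays.

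**Figure D2:**
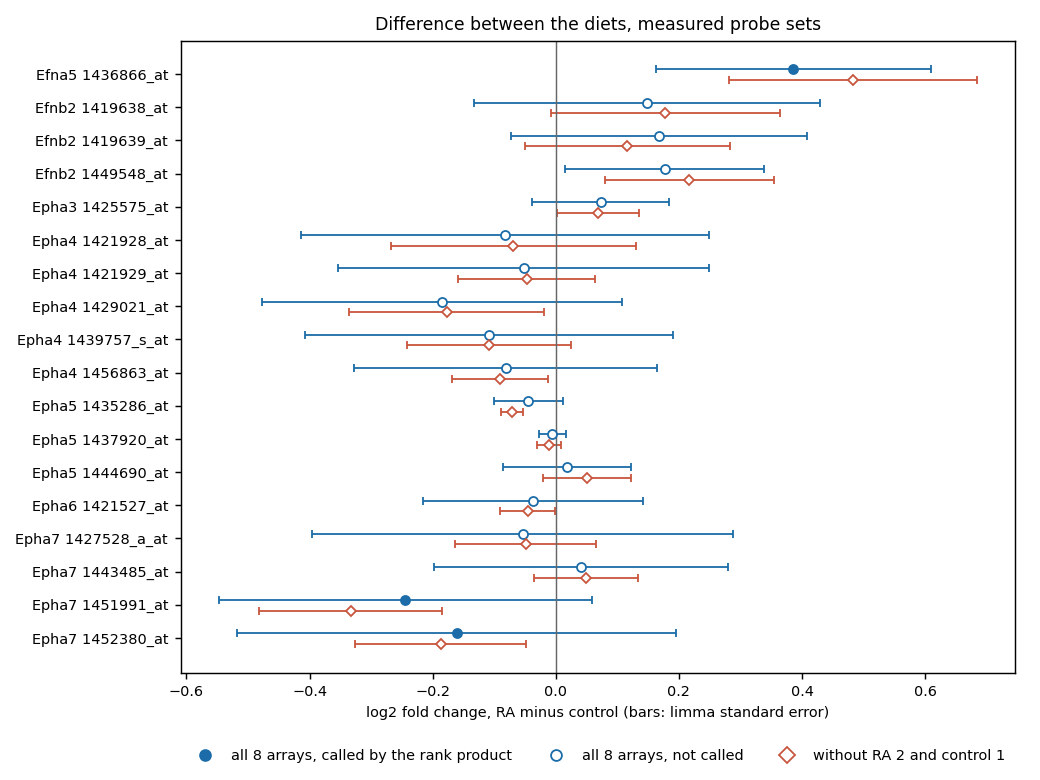
Log2 fold change, RA over control, of the measured member probe sets with its SE from limma, over all 8 arrays and without RA 2 and control 1. The 4 ligand probe sets lie above 0 (0.15 to 0.39) and 11 of 14 receptor probe sets below 0 (all 14 within −0.24 to 0.07). Of all measured probe sets 73.1% lie above 0.

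By class, all 4 measured ligand probe sets averaged higher with RA, at log2 fold changes of 0.15 to 0.39, as did 73.1% of all measured probe sets. Of the 14 receptor probe sets 3 had a higher and 11 a lower mean, at −0.24 to 0.07. Probe sets of 1 gene are not independent of each other, and these counts stand for 2 ligand genes and 5 receptor genes. The median over the 18 was −0.04, against 0.07 over all measured probe sets. No direction turned when arrays were quantile normalized or their medians subtracted, but 14 of the 18 changed sign in at least 1 of the fits that left out 1 array. Without RA 2 alone 11 changed sign, among them Efnb2 1419638_at (−0.02) and 1419639_at (−0.01) and all 5 Epha4 probe sets (0.02 to 0.16). With RA 2 and control 1 left out together 0 did, which is no sign of stable directions. Both arrays lay on the same side of their diet in every measured member, so leaving out both largely cancels in the difference.

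A larger difference ran across the diets. RA 2 and control 1 were the pair of lowest arrays in all 14 receptor probe sets and the pair of highest arrays in all 4 ligand probe sets. This was seen after the values were examined and is given as a description with no test. Among all 3758 measured probe sets these arrays were the lowest pair in 24.1% and the highest pair in 19.4%. Their mean lay 0.68 to 1.01 below that of the other 6 arrays in the 9 probe sets of Epha4 and Epha7 and 0.37 to 0.73 above it in the ligand probe sets (log2). The median size of this gap was 0.69 over the 18 members, against a median size of 0.08 for the difference between diets. Over all measured probe sets the medians were 0.23 and 0.10. The other 6 arrays were not uniform. Control 4 was next lowest after the pair in Epha4 1421928_at (8.13) and 1421929_at (8.97), for example, but not in 1456863_at (7.34).

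Within each diet the gap had the same sign, but its size was not always alike. In Epha7 1452380_at RA 2 lay 0.96 below the other RA arrays, and control 1 lay 1.06 below the other control arrays. In Epha4 1421928_at the gaps were 0.91 in the RA group and 0.85 in the control group. In Efnb2 1419638_at RA 2 lay 0.67 above the other RA arrays and control 1 lay 0.79 above the other control arrays. Epha5 1437920_at, with the smallest spread of the measured members, had gaps of 0.04 below in the RA group and 0.06 below in the control group. The gap was larger in the control group in Efna5 1436866_at, where RA 2 lay 0.27 above the other RA arrays and control 1 lay 0.65 above the other control arrays. In Epha7 1451991_at RA 2 lay 0.64 below the other RA arrays and control 1 lay 0.99 below the other control arrays.

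Without these 2 arrays the diets differed as follows, with 3 arrays in each group. The pair was picked from these same values, so this is a description and no check of the calls. Efna5 1436866_at had a log2 fold change of 0.48 (SE 0.202) and was called higher (pfp = 0.0454). Epha7 1451991_at had −0.33 (SE 0.149) and was called lower (pfp = 0.0189), whereas 1452380_at, at −0.19 (SE 0.139), was not called (pfp = 0.145). Control 1 lay further out than RA 2 in these probe sets, so leaving out the pair widened their differences. The range was 0.12 to 0.48 over the ligands and −0.33 to 0.07 over the receptors.

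Markers of hippocampal fields and of other cell types moved with the same 2 arrays. Of 8 measured markers of dentate granule cells (10 listed, Plk5 and Trpc6 unmeasured), RA 2 and control 1 were the lowest pair in 6. The mean of the list was 6.46 to 7.21 in the RA arrays and 6.54 to 7.34 in the control arrays, and 6.46 and 6.54 in RA 2 and control 1 against 7.09 to 7.34 in the rest. Prox1, the transcription factor that defines granule cells, read 6.87, 6.19, 6.84 and 7.22 in the RA arrays and 6.14, 7.23, 7.36 and 7.01 in the control arrays at 1437894_at. Other Prox1 probe sets were also measured and are not shown here. At 1437894_at RA 2 and control 1 were the lowest pair, as in Epha4 and Epha7. In Calb1, another marker of the list, they were the highest pair.

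The pair was also lowest in 7 of 9 measured markers of CA pyramidal neurons (list mean 7.36 to 7.99 in the RA arrays, 7.48 to 8.03 in the control arrays) and in 9 of 9 of oligodendrocytes (7.53 to 8.93 in the RA arrays, 7.69 to 9.01 in the control arrays). It was highest in 3 of 4 measured striatal markers, of 10 listed (6.90 to 7.58 in the RA arrays, 6.73 to 7.68 in the control arrays). Penk, the enkephalin precursor that striatal neurons express strongly, read 8.12, 8.80, 8.12 and 7.70 in the RA arrays and 9.61, 7.43, 7.46 and 8.36 in the control arrays at 1427038_at, while Drd2, Adora2a and Rgs9, which mark the striatum, were unmeasured. In endothelial markers, of which 3 of 10 were measured, only RA 2 stood clearly apart, with a list mean of 8.03. Control 1 (7.70) lay barely above RA 3 (7.69), and the pair was highest in 1 of 3 genes (7.58 to 8.03 in the RA arrays, 7.47 to 7.70 in the control arrays). In meningeal markers the pair was highest in 4 of 9 (6.54 to 7.40 in the RA arrays, 6.40 to 6.86 in the control arrays).

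Lists of general neurons, astrocytes and thalamus did not have the pair together at 1 end of their means. General neuron markers of the hippocampus had list means of 9.35 to 9.50 in the RA arrays and 9.33 to 9.41 in the control arrays, and astrocyte markers of 7.98 to 8.11 in the RA arrays and 7.84 to 7.99 in the control arrays. Thalamic markers (6.60 to 7.16 in the RA arrays, 6.52 to 6.95 in the control arrays) had the pair at neither end in any of 8 measured genes. Ttr, the choroid plexus transcript, read 11.25, 7.26, 13.14 and 13.25 in the RA arrays and 7.82, 7.88, 13.43 and 8.13 in the control arrays at 1451580_a_at, so RA 2 and control 1 were lowest, with controls 2 and 4 close to them. The choroid plexus list, with 11 of 12 genes measured, did the same, with means of 5.60 in RA 2 and 5.62 in control 1 against 5.66 to 8.13 in the other arrays, a gap of 1.25, and the pair was lowest in 3 of 11 genes. Other Ttr probe sets were also measured and are not shown here. The part of tissue composition in the members' values was not tested.

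**Figure D3:**
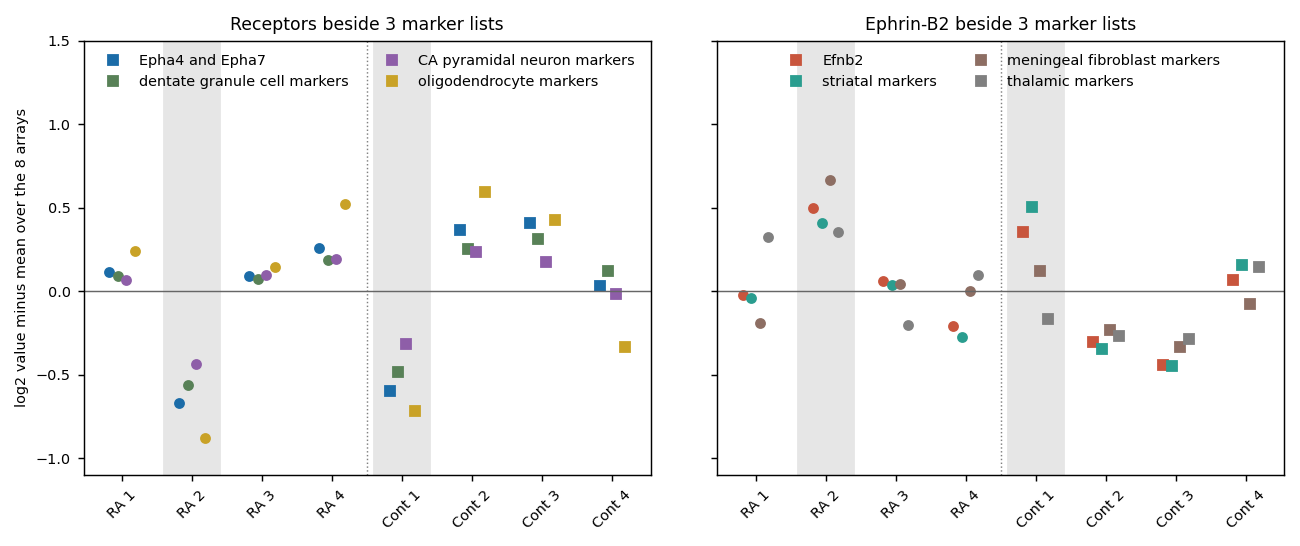
Mean log2 deviation from the 8-array mean for Epha4 and Epha7, for Efnb2 and for marker lists, by array, RA arrays before control arrays. Epha4 and Epha7 stand at −0.67 in RA 2 and −0.60 in control 1. In the same arrays dentate granule cell markers stand at −0.56 and −0.48, CA pyramidal neuron markers at −0.43 and −0.32 and oligodendrocyte markers at −0.88 and −0.72. Efnb2, striatal and meningeal markers lie above 0 in both, and thalamic markers above 0 in RA 2 and below 0 in control 1.

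The upstream sequences of the 4 members on which the pattern turns are shown because Epha4 and Epha7 moved together between arrays and Efna5 and Efnb2 moved the opposite way. Each runs 5′ to 3′ on the gene's strand up to its annotated start (RefSeq, GRCm38.p6), and capitals mark the GC box GGGCGG or its reverse complement CCGCCC. Positions are chr1:77515108-77515338, minus strand, for Epha4 and chr4:28812881-28813065, plus strand, for Epha7 (the longer of 2 windows given). They are chr17:62881318-62881567, minus strand, for Efna5 and chr8:8661243-8661492, minus strand, for Efnb2.
Epha4: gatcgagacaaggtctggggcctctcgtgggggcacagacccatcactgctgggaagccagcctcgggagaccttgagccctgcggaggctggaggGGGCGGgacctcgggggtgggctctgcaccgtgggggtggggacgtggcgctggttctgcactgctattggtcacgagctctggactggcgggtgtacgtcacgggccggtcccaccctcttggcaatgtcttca
Epha7: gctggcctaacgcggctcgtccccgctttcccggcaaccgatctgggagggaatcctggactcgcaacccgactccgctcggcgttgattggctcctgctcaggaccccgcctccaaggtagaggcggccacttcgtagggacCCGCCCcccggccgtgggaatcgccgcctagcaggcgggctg
Efna5: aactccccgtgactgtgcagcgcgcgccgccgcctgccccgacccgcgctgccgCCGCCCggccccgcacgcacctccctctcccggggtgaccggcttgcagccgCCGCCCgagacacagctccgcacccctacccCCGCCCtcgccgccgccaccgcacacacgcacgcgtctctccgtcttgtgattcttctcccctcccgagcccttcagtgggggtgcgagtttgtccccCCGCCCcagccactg
Efnb2: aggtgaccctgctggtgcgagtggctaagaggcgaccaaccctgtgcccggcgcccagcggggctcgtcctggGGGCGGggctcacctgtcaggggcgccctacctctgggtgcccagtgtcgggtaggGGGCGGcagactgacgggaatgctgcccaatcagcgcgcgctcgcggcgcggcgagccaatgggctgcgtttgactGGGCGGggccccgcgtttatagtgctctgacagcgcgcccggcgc

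The windows were GC-rich, at 67.1% for Epha4, 69.7% for Epha7, 74.8% for Efna5 and 72% for Efnb2. GC boxes numbered 1 in the Epha4 and Epha7 windows, 4 in the Efna5 window and 3 in the Efnb2 window, and 32.7% of 32851 mouse promoter windows of 250 bases hold at least 1. The TATA box letters TATAAA, searched with TTTATA, were found once, in Efnb2 (12.4% of windows hold them). The E-box letters CAGCTG (13% of windows) and CACGTG (6.02%) were in none of the 4. The Epha4 and Epha7 windows are shorter, at 231 and 185 bases, and a match of letters is a description of the sequence only.

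Of 12 further ephrins and Eph receptors, 11 had a probe set of their own (Ephb2 had none), with 2 of 16 probe sets measured and 0 called by the rank product. limma also called 0, and 0 had an unadjusted p under 0.05. Efnb1, a B-class ligand, read 6.13, 6.44, 6.12 and 5.82 in the RA arrays and 6.32, 5.93, 6.05 and 6.24 in the control arrays at 1418285_at (log2 fold change −0.01, SE 0.149). Ephb1, a B-class receptor, read 6.96, 6.28, 6.98 and 7.02 in the RA arrays and 6.49, 7.06, 6.88 and 6.81 in the control arrays at 1455188_at (0.00, SE 0.204). Here too RA 2 and control 1 were the highest pair for the ligand and the lowest pair for the receptor.

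A list of 39 signalling partners held the exchange factors and small GTPases that Eph receptors act through, kinases, phosphatases, scaffolds, the protease ADAM10 and the astrocytic glutamate transporters. For 35 of them a probe set named the gene alone, and 14 of 122 probe sets, of 12 genes, were measured. The rank product called 1 gene lower and 1 higher, and the other 33 not, against 1.09% of 18193 genes called lower and 1.71% called higher in all. Both called probe sets were among the 14 measured. Of all measured probe sets 6.84% were called lower and 10.9% higher, so these counts lie near the background. Measured partners had a median log2 fold change of 0.05, 10 with a higher and 4 with a lower mean under RA. Of all measured probe sets 73.1% had a higher mean.

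Anks1b, which encodes a postsynaptic scaffold related to the Eph-binding protein Odin, was the partner called lower. It read 8.63, 8.49, 8.81 and 8.62 in the RA arrays and 8.96, 9.21, 9.34 and 9.05 in the control arrays at 1460449_at. Every RA array lay below every control array, as in 2.87% of measured probe sets, and RA 2 and control 1 were not the extreme pair. The log2 fold change was −0.50 (SE 0.102, pfp = 0.000588, limma adjusted p = 0.319), between −0.56 and −0.44 when each array was left out, with the call kept in 8 of 8. It was lost when only measured probe sets were tested (pfp = 0.123). The other 6 Anks1b probe sets were unmeasured.

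Slc1a3, the glutamate transporter GLAST of astrocytes, was called higher. At 1426341_at it read 9.74, 9.94, 9.57 and 9.65 in the RA arrays and 9.58, 9.47, 9.36 and 9.59 in the control arrays, a log2 fold change of 0.22 (SE 0.0923, pfp = 0.0487, limma adjusted p = 0.491). RA 3 lay below controls 1 and 4, and the other RA arrays above every control. The call was kept in 2 of the 8 fits that left out 1 array. It was lost with only measured probe sets ranked (pfp = 1.11), under quantile normalization (pfp = 0.0502) and without probe sets of low mean (pfp = 0.163). Of 6 Slc1a3 probe sets only this 1 was measured. Astrocyte marker means, given above, were also higher in the RA group, and their part in this value was not tested.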

How the data were processed

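Hippocampal RNA was measured on 8 arrays, 4 of the RA group and 4 of the control group, grouped by the sample labels. The authors summarised the probes with FARMS in R, and the deposited values, in log2 units, were used without further scaling. Which scaling between arrays accompanied FARMS was not given in the sources used here. Array number limits the precision. After 64 control probe sets of the maker were left out, 45037 were tested, of which 34945 name 1 gene.

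The rank product named in the study's methods was written in Python 3.11.15 with numpy 2.4.6 (100 permutations of the values within each array, pfp under 0.05 in each direction). It ranks differences without weighing a probe set by its own spread. limma 3.58.1 in R 4.3.3 gave log2 fold changes, SEs and Benjamini-Hochberg adjusted p-values over all probe sets. Both were also run on simulated data with independent noise in each array, which cannot show how the pfp holds where arrays share deviations. Same-numbered arrays of the diets were not treated as pairs. Their deviations from the group means correlated at −0.393 to 0.448 over the measured probe sets. Arrays of different numbers ran from −0.703 (RA 2 with control 3) to 0.741 (RA 2 with control 1), with RA 2 and control 4 at 0.536.

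The named genes were all members, partners and other family genes with a called probe set, and Ttr with the marker lists as means per array. Prox1, Calb1, Penk, the unmeasured striatal markers named, Efnb1 and Ephb1 were added after their values were seen. The members and lists were chosen with earlier results of these data known. Alternatives were quantile normalization, subtraction of array medians, filters on low means or low SD, limma with and without trend, a stricter pfp, a replicate block, 1 probe set per gene, other SD limits and leaving out each array. Leaving out RA 2 and control 1 together and a second random seed were added after the values were seen.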

Additional observations from a re-analysis of the deposited data

Results flagged for a closer look

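In 3 of 36 groups of 4 arrays, 1 array stood further from its nearest neighbour, relative to the whole range of the group, than Dixon's critical value for 4 samples allows. Chance gives about 1 in 20 such groups where groups are independent, which these are not, as they share arrays and genes. In Epha4 1429021_at RA 2 was lowest in the RA group, with a gap of 0.76 in a range of 0.84 on the log2 scale (ratio 0.904). In Epha7 1427528_a_at RA 2 was again lowest in the RA group, with a gap of 0.94 in a range of 1.09 (ratio 0.862). In Epha6 1421527_at control 1 was lowest in the control group, with a gap of 0.49 in a range of 0.57 (ratio 0.863). All 3 are receptor probe sets, and RA 2 and control 1 were the lowest pair in all 14 of those, so the flags add nothing to that pattern.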

How the results depend on the processing

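Main counts, higher and lower, were 1 and 2 for member probe sets, 1 and 1 for partner genes and 408 and 257 for all probe sets. limma, limma with trend and robust moderation, and limma with the replicate block gave 0 for all of these. With only probe sets of SD above 0.01 tested, 0 and 0 members, 0 and 0 partners and 4 and 17 probe sets were called. Without probe sets of low mean, members fell to 0 and 0, partners called higher to 0 and all probe sets called higher to 40. At pfp under 0.01 the members numbered 0 and 0, partners called higher 0, and all probe sets 36 and 156. Quantile normalization left 0 partners called higher. With 1 probe set per gene, 1 member was called lower. Without RA 2 and control 1 together, 1 member was called lower, 0 partners higher and 35 probe sets higher.

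Same-numbered arrays share only a number. The rank product with the replicate block called 0 and 0 members, 0 partners higher and 59 probe sets higher.

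Leaving out each array in turn gave 0 to 4 members called higher and 0 to 4 lower, 0 to 2 partners higher, and 17 to 969 probe sets higher and 129 to 314 lower. The 4 members called higher and the 969 came without control 1, the 4 called lower without RA 4. Over these fits the log2 fold change of probe sets that changed sign ran between −0.0189 and 0.34 for Efnb2 1419638_at, −0.0098 and 0.29 for 1419639_at, −0.0033 and 0.14 for Epha3, −0.30 and 0.14 for Epha4 1421928_at, −0.26 and 0.16 for 1421929_at, −0.38 and 0.0172 for 1429021_at, −0.32 and 0.10 for 1439757_s_at, −0.26 and 0.0906 for 1456863_at, −0.0211 and 0.0056 for Epha5 1437920_at, −0.0319 and 0.10 for 1444690_at, −0.17 and 0.0881 for Epha6, −0.30 and 0.19 for Epha7 1427528_a_at, −0.13 and 0.21 for 1443485_at, and −0.43 and 0.0783 for 1452380_at. The cause was not tested. No member changed direction under quantile normalization or subtraction of array medians. None did without RA 2 and control 1 together, but that pair was picked from these values and its shared shift largely cancels between the diets. The other alternatives use the same fold change, so they cannot turn a direction. FARMS left 11 of 29 member probe sets without a measurable difference.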
